A study of Mus musculus with 6 samples.

Results

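Genes of bone morphogenetic protein (BMP) signalling were followed in mouse embryonic stem (ES) cells, in a set of 10 genes: the ligand Bmp4, the receptors Bmpr1a and Bmpr2, the signal transducers Smad1, Smad5 and Smad4, the inhibitor Smad6 and the targets Id1, Id2 and Id3. Every probe set whose array annotation gave 1 of these symbols and no other was taken, which gave 25 of the 45037 probe sets tested and 10 of the 18193 genes with such a probe set. The cells were of line EBRTcH3 and carried the human WBSCR1 coding sequence, tagged with 3xFLAG, at the ROSA26 locus under a promoter that tetracycline represses. Clones A1, A3 and A4, all with the transgene and all grown with serum and leukemia inhibitory factor (LIF), were each profiled on 1 array after 24 h without tetracycline (induced) and on 1 array with tetracycline (control), 6 arrays in all. Replicates 1, 2 and 3 are A1, A3 and A4. Every group is thus built of lines that are 1 clone each, the transgene and the removal of tetracycline cannot be told apart, and no array was made of cells without the transgene.

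BMP ligands bind pairs of type I and type II receptor kinases, Bmpr1a being a type I and Bmpr2 a type II receptor. The activated type I receptor phosphorylates Smad1 and Smad5, which join the shared partner Smad4 and enter the nucleus, and Smad6 opposes this step. Among the genes switched on are the Id genes, whose helix-loop-helix proteins cannot bind DNA and hold E proteins away from it. In mouse ES cells with LIF, BMP-induced Id proteins are known to hold back neural differentiation.

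The promoters of Id2 and Id3, the members read higher in clone A3, are shown first, with the start of Smad6, the member holding the rarest motif searched. RefSeq windows (GRCm38.p6, 250 bases before to 50 after a transcript start) existed for 8 of the 10 genes, in 10 windows, and were searched for the palindromes GGCGCC (a Smad1 and Smad5 type of site) and GTCTAGAC and for CAGAC on either strand. No match in the windows shown overlapped another. The sequences below run 5′ to 3′ on the gene's strand, with matches in capitals.
Id2, upstream 250 bases, chr12:25096093-25096342, minus strand: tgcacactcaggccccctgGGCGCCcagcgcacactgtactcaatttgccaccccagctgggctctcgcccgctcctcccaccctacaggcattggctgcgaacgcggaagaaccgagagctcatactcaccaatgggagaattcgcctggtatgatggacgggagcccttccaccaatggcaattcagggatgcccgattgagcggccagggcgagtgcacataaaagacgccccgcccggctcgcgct
Id3, upstream 250 bases, chr4:136143572-136143821, plus strand: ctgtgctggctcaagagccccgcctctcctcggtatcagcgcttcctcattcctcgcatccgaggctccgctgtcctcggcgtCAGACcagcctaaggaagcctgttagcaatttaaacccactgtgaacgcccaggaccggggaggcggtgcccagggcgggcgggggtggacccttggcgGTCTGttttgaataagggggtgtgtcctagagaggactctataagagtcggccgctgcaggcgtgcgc
Smad6, 40 bases around the start, chr9:64022056-64022095, minus strand: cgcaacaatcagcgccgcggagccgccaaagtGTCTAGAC
The Id2 window held GGCGCC 231 bases before the start. The Id3 window held CAGAC at 167 and GTCTG, its complement, at 68 bases before the start. The match of Smad6 began 4 bases before its start. GGCGCC was found in 5 of the 10 member windows and 4 of the 8 genes (2 overlapping Smad5 windows hold the same site), against 11.9% of all 32851 windows, GTCTAGAC in 1 window against 0.213%, and CAGAC in 2 windows against 49.6%. Besides Id2, the members with GGCGCC were Bmpr1a, Bmpr2 and Smad5, none of which passed the clone test below. Bmp4, Smad1 and Id3, which passed it, held none. Outside the members, Id4 (higher in A3) and Ski (lower in A3) held it, and Bmpr1b and Zfp423 did not. A link between motifs and clone differences was not tested. The matches are of letters in short windows and are not bound sites.

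Signals are log2 values of the robust multiarray average (RMA), and a level is read within a probe set only, since probe sets differ in response. Array medians were 5.11 to 5.19 log2 and the 25th percentiles were 3.67 to 3.76. All 10 ES cell markers, Pou5f1, Nanog and Sox2 among them, read 10.2 to 14.1 log2 in every array. The 6 probe sets for mouse Eif4h, the counterpart of WBSCR1, changed by -0.27 to 0.074 log2 on induction, and whether any of them reads the human sequence was not analysed, so induction was not verified on these arrays. The study's methods state that transgene induction in these clones was checked by real-time RT-PCR. The 3′ minus 5′ signal of Actb, a sign of RNA quality, was 0.29 and 0.32 log2 in the A3 arrays and 0.40 to 0.45 in the others. That of Gapdh was 0.078 log2 in induced A3, -0.0073 in control A3 and 0.054 to 0.10 in the others, so it did not set both A3 arrays apart. Induced A1 and control A4 stood apart: 63 probe sets of 51 named genes, taken as those at least 1 log2 higher on induction in A1 and at least 1 log2 lower in A4, averaged 7.89 and 7.78 log2 there and 6.35 to 6.57 in the other arrays, a gap that the choice itself sets. The reverse pattern was met by 0 probe sets, and no member was among the 63. Whether labels of A1 and A4 arrays were exchanged was not tested, and an exchange could change what the A1, A4 and induction values stand for. Results between clones are therefore also given without both arrays. The number of arrays (6) limits the precision, and RNA of a whole culture does not tell fewer cells of a type apart from less RNA per cell.

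Clone A3 read higher Id2 and Id3 and lower Bmp4 and Smad1 than clones A1 and A4, whereas the receptors, Smad5, Smad4, Smad6 and Id1 did not pass the test. The contrast was A3 minus the mean of A1 and A4 in a limma fit of condition and clone over all probe sets, with Benjamini-Hochberg adjustment. Of the 25 member probe sets 7 (28%) were called at an adjusted p under 0.05, 3 higher and 4 lower, against 9.57% of all probe sets. The 7 belong to Bmp4, Smad1, Id2 and Id3. With a floor of 5 log2 on the mean, 7 of 20 member probe sets were called, against 4515 of 23591 probe sets. By the brightest probe set of each gene, 2 of the 10 were higher and 2 lower, where 5.13% of all genes were called higher and 6.32% lower. The median of the 10 differences was -0.076 log2 against 0.038 over all genes, and the median size was 0.29 against 0.15. An F test over the 3 clones called 5 of the 25, against 5.54% of all probe sets, and 4 of the 10 brightest, against 6.84%. The count of 7 was 4 without induced A1, 3 without induced A3, 4 without control A3 and 2 without both induced A1 and control A4. The count of 5 by the F test was 2 without each of the 3 single arrays just named and 0 without that pair, where A1 and A4 keep 1 array each and the spread within clones comes from A3 alone. Each clone has 2 arrays, so these p-values measure the spread between arrays of the same clones, and with 1 clone on one side they do not speak of other clones.

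**Figure D1:**
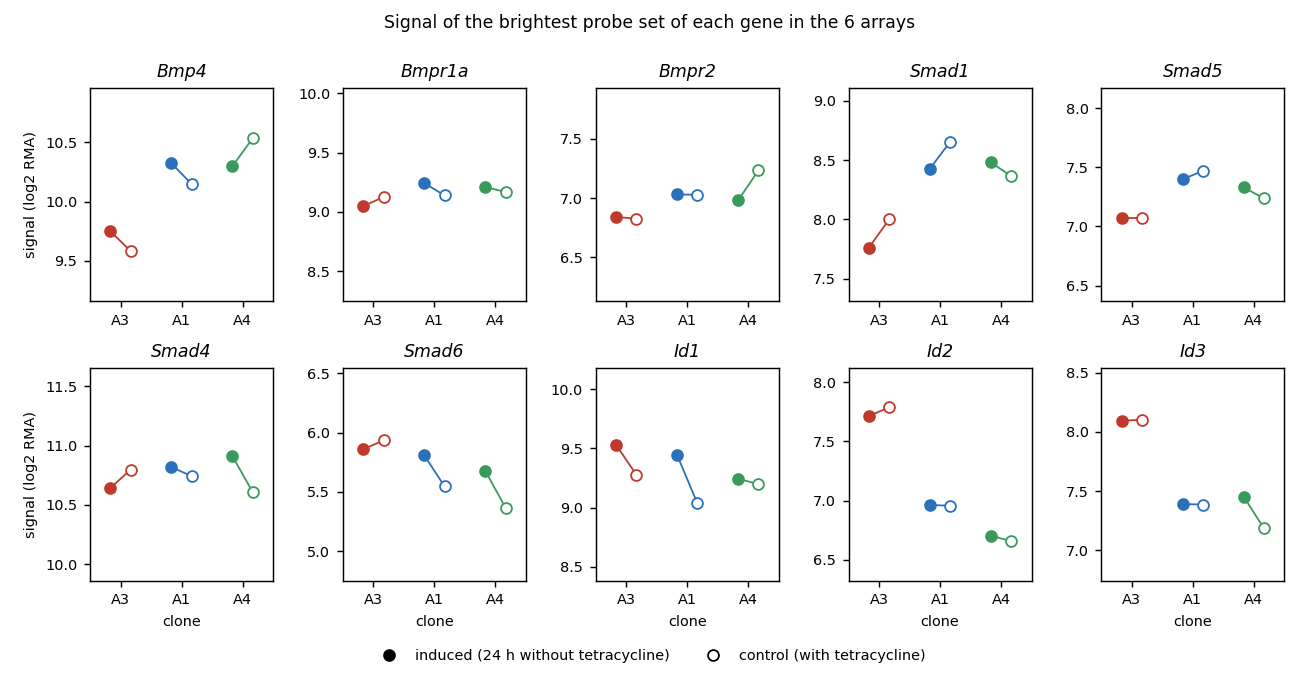
Signal (vertical axis, log2 RMA) of the brightest probe set of each of the 10 genes in clones A3, A1 and A4 (horizontal axis), with filled circles for induced and open circles for control arrays, each circle being 1 array and each line joining a clone's pair. Id2 and Id3 lie higher, and Bmp4 and Smad1 lower, in both A3 arrays than in the other 4, and each panel has its own range of levels.

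Bmp4, the ligand, was measured by a single probe set (1422912_at). It read 9.75 log2 in induced A3, 9.58 in control A3, 10.32 in induced A1, 10.15 in control A1, 10.30 in induced A4 and 10.53 in control A4. Both A3 arrays were below the other 4, with a gap between the groups. The difference was -0.66 ± 0.12 log2 (SE, 95% interval -0.94 to -0.38), or 1.58-fold lower in A3, with an adjusted p of 0.0141 and an F test adjusted p of 0.0381. The call was lost without induced A1 (-0.61, adjusted p = 0.0704), induced A3 (-0.76, 0.0634), control A3 (-0.56, 0.102) or both induced A1 and control A4 (-0.56, 0.0855).

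The receptors gave small differences. The brightest of 6 Bmpr1a probe sets (1425492_at) read 9.05 and 9.12 log2 in A3, 9.24 and 9.14 in A1 and 9.21 and 9.17 in A4, induced before control. The A3 arrays were the 2 lowest, but the distance was within the spread: -0.10 log2 (95% interval -0.33 to 0.13, adjusted p = 0.584). Of the 6 probe sets 4 read lower and 2 higher in A3, and none was called, the smallest adjusted p being 0.471. For Bmpr2 the brightest of 3 probe sets (1434310_at) read 6.84 and 6.82 log2 in A3, 7.03 and 7.03 in A1 and 6.98 and 7.23 in A4. Here too the A3 arrays were the lowest, by -0.23 log2 (interval -0.48 to 0.012, adjusted p = 0.226), while the other Bmpr2 probe sets differed by 0.31 (adjusted p = 0.130) and -0.039 log2, both near 4 log2 and close to the 25th percentile of the arrays.

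Smad1, which carries the signal of the BMP receptors, was called lower in A3 on each of its 3 probe sets. The brightest (1448208_at) read 7.76 log2 in induced A3, 8.0 in control A3, 8.43 in induced A1, 8.66 in control A1, 8.48 in induced A4 and 8.36 in control A4. The A3 arrays were again below the other 4. The difference was -0.60 ± 0.11 log2 (SE, interval -0.87 to -0.34), 1.52-fold lower, with an adjusted p of 0.0167 and 0.0466 by the F test. The dimmest (1416081_at) read 6.45 and 6.56 log2 in A3, 7.65 and 7.09 in A1 and 7.12 and 7.50 in A4, a difference of -0.83 ± 0.18 log2 (1.78-fold lower, adjusted p = 0.0262). The remaining one (1459843_s_at, a type of probe set that several transcripts can share) read 7.33 and 7.47 log2 in A3, 8.55 and 7.91 in A1 and 8.03 and 8.04 in A4, a difference of -0.73 ± 0.16 log2 (1.66-fold lower, adjusted p = 0.0287). Neither of these 2 passed the F test (adjusted p = 0.0743 and 0.0747).

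The calls of Smad1 depended on single arrays. For the brightest probe set the adjusted p was 0.0553 without induced A1 (-0.64 log2), 0.165 without induced A3 (-0.51), 0.0667 without control A1 (-0.56), 0.0525 without control A3 (-0.69), 0.0928 without both A1 arrays (-0.54) and 0.0738 without induced A1 and control A4 (-0.69). For the dimmest it was 0.208 without induced A3 (-0.73 log2), 0.0790 without control A3 (-0.94), 0.0509 without control A4 (-0.68) and 0.0690 without induced A1 and control A4 (-0.60). For the remaining one it was 0.0556 without induced A1 (-0.55 log2), 0.276 without induced A3 (-0.51), 0.0691 without control A4 (-0.67) and 0.0760 without induced A1 and control A4 (-0.57). The direction was lower in A3 in each of these fits, which hold fewer arrays.

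Smad5, the close relative of Smad1, differed less. Its brightest probe set of 3 (1433641_at) read 7.07 and 7.07 log2 in A3, 7.40 and 7.47 in A1 and 7.33 and 7.24 in A4. The A3 arrays were the lowest, with a difference of -0.29 ± 0.099 log2 (SE, interval -0.52 to -0.062) that did not pass after adjustment (adjusted p = 0.117), and the other probe sets differed by 0.20 and 0.045 log2. Smad4, the shared partner, read 10.64 and 10.80 log2 in A3, 10.82 and 10.74 in A1 and 10.91 and 10.61 in A4 on its brightest probe set (1422487_at). The groups overlapped, with a difference of -0.050 log2 (interval -0.33 to 0.23, adjusted p = 0.847) whose sign turned after a further quantile normalization (0.0094 log2). The other 2 Smad4 probe sets differed by -0.22 (adjusted p = 0.381) and -0.098 log2.

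Smad6, the inhibitory Smad, had 1 probe set (1422771_at). It read 5.86 and 5.93 log2 in A3, 5.81 and 5.55 in A1 and 5.68 and 5.36 in A4. Both A3 arrays were the highest, but induced A1 lay close to them, and the difference of 0.30 ± 0.12 log2 (SE, interval 0.029 to 0.57) did not pass (adjusted p = 0.164).

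The Id genes differed in size of effect. Id1 (1425895_a_at) read 9.53 and 9.28 log2 in A3, 9.45 and 9.04 in A1 and 9.24 and 9.20 in A4, so the groups overlapped and the difference was 0.17 log2 (interval -0.085 to 0.43, adjusted p = 0.393). Id2 read 7.71 log2 in induced A3, 7.79 in control A3, 6.96 in both A1 arrays, 6.70 in induced A4 and 6.66 in control A4 on its brightest probe set (1422537_a_at). The A3 arrays were higher than the other 4 by a wide gap. The difference was 0.93 ± 0.097 log2 (SE, interval 0.71 to 1.16), 1.91-fold higher in A3, with an adjusted p of 0.00176 and 0.00507 by the F test. The second Id2 probe set (1435176_a_at) read 7.74 and 7.97 log2 in A3, 7.18 and 6.38 in A1 and 6.53 and 6.10 in A4. Its difference was 1.30 ± 0.19 log2 (2.47-fold higher, adjusted p = 0.00590). The last Id2 probe set (1453596_at) was dim, at 2.60 to 3.01 log2 in all arrays, below their 25th percentiles, and differed by 0.16 log2 (adjusted p = 0.377). Both calls held in every alternative run, with adjusted p up to 0.0411 and 0.0354, both reached without induced A1 and control A4.

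Id3 (1416630_at) read 8.10 log2 in both A3 arrays, 7.39 in both A1 arrays, 7.45 in induced A4 and 7.18 in control A4. The A3 arrays were clear of the rest, and the difference was 0.75 ± 0.11 log2 (SE, interval 0.50 to 0.99), 1.68-fold higher, with an adjusted p of 0.00573 and 0.0173 by the F test. The call was lost only without both induced A1 and control A4 (0.68 log2, adjusted p = 0.0528), and it held without each single array.

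**Figure D2:**
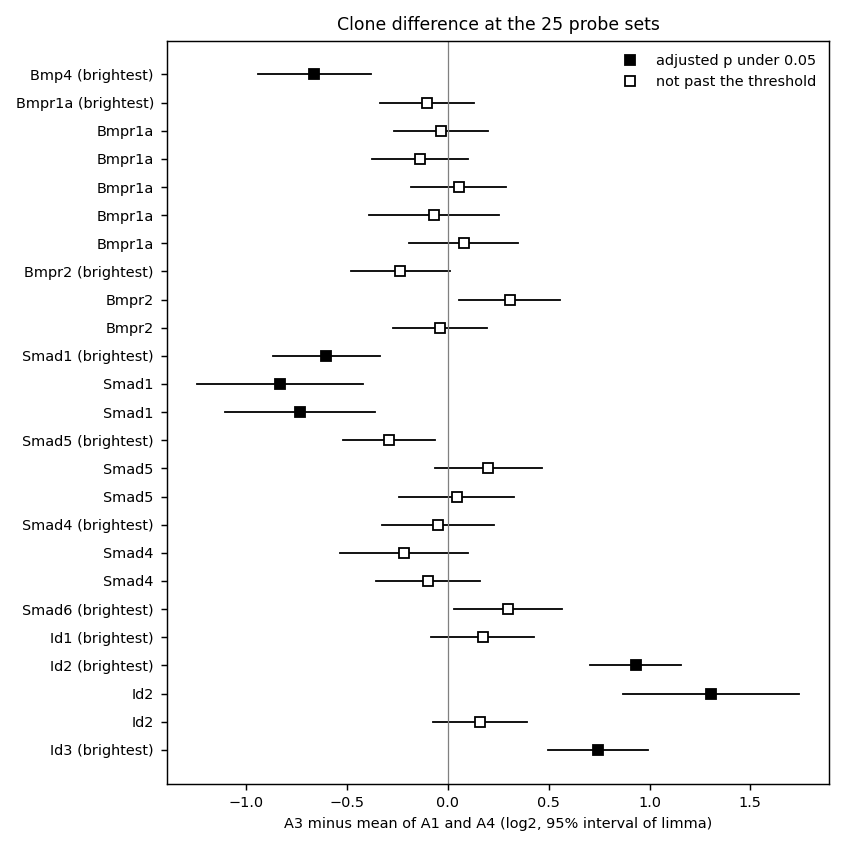
Difference between A3 and the mean of A1 and A4 (horizontal axis, log2) at the 25 member probe sets (vertical axis), with squares for the difference and lines for the 95% interval of limma, and filled squares for an adjusted p under 0.05. The 3 Smad1 probe sets and that of Bmp4 lie on the negative side and 2 Id2 probe sets and that of Id3 on the positive side.

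Other measures also differed between A3 and the mean of A1 and A4. Of the 7 primitive endoderm markers, genes of the yolk sac lineage, all read lower in A3. Called lower were 5, where 6.32% of all genes were: Gata4 (-0.76 log2), Gata6 (-0.73), Sox7 (-0.83), Pdgfra (-0.44) and Dab2 (-1.12). For Pdgfra the groups overlapped, with induced A4 below induced A3, and A1 was the high clone. A1 minus A4 was 0.61 log2 for Pdgfra, 0.77 for Dab2, 0.56 for Sox7, 0.28 for Gata6 and -0.037 for Gata4, none of them called. The summed linear signal of the 7 markers was 209 to 225 in A3 and 296 to 454 in A1 and A4. Brighter probe sets weigh more in this sum, and Dab2 was the brightest of the 7 in every array (5.71 to 7.47 log2). Of 5 trophectoderm markers Tfap2c was called higher (1.10 log2), with linear sums of 619 to 698 in A3 and 313 to 387 in A1 and A4 that Tfap2c carries (516 to 591 in A3), the other 4 differing by -0.050 to 0.12 log2, and of the 10 ES markers Klf4 was called lower (-0.51 log2, adjusted p = 0.0384), with 0 called higher. Of the 10 ES markers 6 read lower in A3. Esrrb was close to the threshold (-0.45 log2, adjusted p of limma = 0.0504), with both A3 arrays the lowest. No marker of early mesoderm (4 measured), neural ectoderm (5) or fibroblasts (6) was called. RMA gives no signal of 0, and 1 trophectoderm and 2 fibroblast markers lay below the 25th percentile of every array. The part of these markers, and of the Actb ratio above, in the differences of the BMP genes was not tested.

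Between A1 and A4, 0 of the 25 member probe sets were called, against 0.0178% of all probe sets (8 of 45037), and 2 had an unadjusted p under 0.05. The first was the brightest Id2 probe set, 0.28 log2 higher in A1 (interval 0.019 to 0.54, unadjusted p = 0.0384, adjusted p = 1). The second was a dim Bmpr1a probe set (1451729_at), which read 4.71 and 4.78 log2 in A1 and 5.12 and 5.07 in A4, a difference of -0.35 (interval -0.66 to -0.040, unadjusted p = 0.0318, adjusted p = 1). By level, Id2 thus ran A3, A1, A4, with the step between A1 and A4 not past the threshold.

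Other genes of the pathway were given by a list of 42 genes, of which 40 had a probe set of their own symbol. In A3, 22 were higher and 18 lower than in A1 and A4, and 4 (10%) were called, where 11.4% of all 18193 genes were called. Id4, a further Id gene, read 6.86 and 6.76 log2 in A3, 5.84 and 5.86 in A1 and 5.86 and 5.63 in A4, a difference of 1.01 ± 0.10 log2 (SE, adjusted p = 0.00164). The type I receptor Bmpr1b was also higher, at 4.32 and 4.21 log2 against 3.23 and 3.49 in A1 and 3.43 and 3.39 in A4 (0.88 ± 0.11, adjusted p = 0.00381), although its signals in A1 and A4 lay below the 25th percentile of their arrays. Both calls held in each alternative run.

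Lower in A3 were Zfp423, a zinc finger protein known as a partner of Smads at BMP targets, and Ski, a corepressor that binds Smads. Zfp423 read 8.23 and 8.38 log2 in A3, 9.10 and 9.52 in A1 and 9.28 and 9.09 in A4, a difference of -0.94 ± 0.13 log2 (SE, adjusted p = 0.00568, and 0.0567 without induced A3). Ski read 8.61 and 8.83 log2 in A3, 9.17 and 9.41 in A1 and 9.44 and 9.26 in A4, a difference of -0.60 ± 0.12 log2 (adjusted p = 0.0213). Its call was lost without induced A1 (0.0574), induced A3 (0.194), induced A4 (0.0521), control A1 (0.0785), control A3 (0.0629), both A1 arrays (0.0704) or induced A1 and control A4 (0.0670), with differences that stayed between -0.71 and -0.50 log2 over all alternatives. In both genes the A3 arrays lay below the other 4.

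By role, 0 of 8 ligands, 1 of 9 receptors and co-receptors, 0 of 2 further Smads, 0 of 9 antagonists, 1 of 5 negative regulators in the cell and 2 of 7 targets and partners were called between A3 and the others. The share over all genes was 11.4%. The F test called 4 of the 40, against 6.84% of all genes: Id4, Bmpr1b, Zfp423 and Bmper, a secreted regulator of BMPs. Bmper read 3.31 and 3.62 log2 in A3, 4.10 and 4.07 in A1 and 3.36 and 3.28 in A4, higher in A1 than in A4 by 0.76 log2 (F test adjusted p = 0.0306, adjusted p of A1 minus A4 = 0.659).

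**Figure D3:**
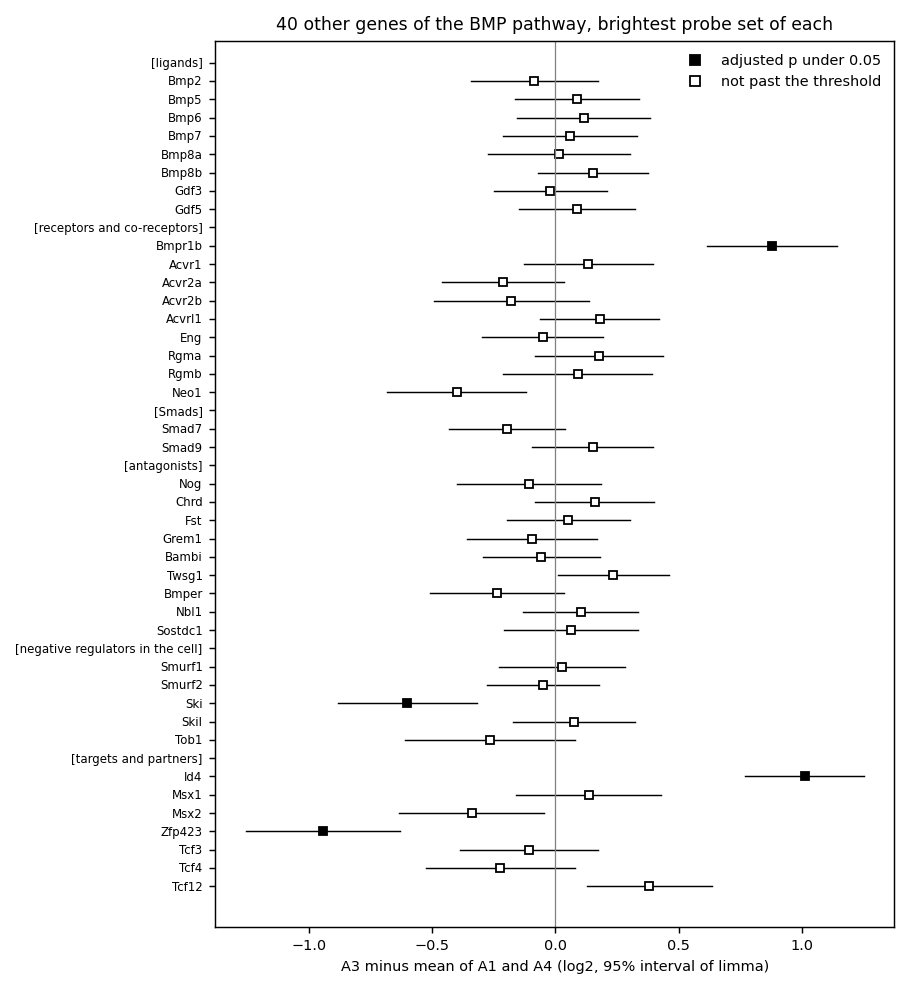
Difference between A3 and the mean of A1 and A4 (horizontal axis, log2, with the 95% interval of limma as lines) for the brightest probe set of 40 further BMP pathway genes, grouped by role down the vertical axis, with filled squares for an adjusted p under 0.05. Bmpr1b and Id4 lie on the positive side and Ski and Zfp423 on the negative side, and the intervals of most other genes include 0.

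Over the 6 arrays the centred signals of Id1, Id2 and Id3 were averaged to a profile spanning 0.77 log2. Among 9729 other genes with a mean of at least 6 log2, the smallest root mean square differences from it were those of 2010204K13Rik (0.026 log2), Rundc3b (0.027), Zfp819 (0.035), the gap junction gene Gjb5 (0.036) and the tropomyosin gene Tpm1 (0.039), against 0.30 for a flat gene. The profile stood at 0.44 and 0.38 log2 in the A3 arrays and between -0.33 and -0.074 log2 in the other 4, so the likeness is a description over 3 clones of which A3 is the high one.

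Removal of tetracycline gave no called change in these genes. In induced minus control, with condition as the only term, 0 of the 25 member probe sets passed limma's test and 2 had an unadjusted p under 0.05, and 0% of all 45037 probe sets were called (676 at an unadjusted p under 0.05). The 10 brightest probe sets differed by -0.12 to 0.24 log2, with 95% intervals as wide as -0.80 to 0.79 for Id2 and as narrow as -0.20 to 0.24 for Bmpr1a. With clone as a block, which takes the A3 difference out of the error, the standard errors of these 10 were 0.092 to 0.11 log2 and 0 were again called. The methods' t-test called 0 of the 25, with 1 at an unadjusted p under 0.05.

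Id1 was the only one of the 10 brightest probe sets that read higher in the induced array of every clone, and 0 read lower in every clone. The share over all genes was not counted. Among the dimmer probe sets, Bmpr1a 1425491_at, 1425493_at and 1445413_at, Bmpr2 1419616_at and Id2 1453596_at also read higher in every clone. Bmpr2 1441652_at read lower in every clone. Id1 averaged 9.41 ± 0.15 log2 in induced and 9.17 ± 0.12 log2 in control arrays (SD, n = 3 each). The clones changed by 0.25 (A3), 0.41 (A1) and 0.046 log2 (A4), and the difference of 0.24 ± 0.12 log2 (SE) did not pass (unadjusted p of limma = 0.0774, 0.0549 with clone as a block). On its brightest probe set Id2 averaged 7.13 ± 0.52 log2 in induced and 7.13 ± 0.59 log2 in control arrays. Its 3 clones changed by -0.074 (A3), 0.0082 (A1) and 0.044 log2 (A4). The second Id2 probe set (1435176_a_at) changed by -0.23 (A3), 0.80 (A1) and 0.43 log2 (A4), a difference of 0.33 log2 (unadjusted p of limma = 0.528). The dim one (1453596_at) changed by 0.12 (A3), 0.32 (A1) and 0.26 log2 (A4). Its difference was 0.23 log2 (unadjusted p of limma = 0.0686, 0.0396 with clone as a block). The Id2 probe sets thus differed on induction, and none was called. Id3 averaged 7.65 ± 0.39 and 7.56 ± 0.48 log2, with nearly all of its difference in A4 (0.27 log2).

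Of the upstream members, Bmp4 averaged 10.12 ± 0.33 log2 in induced and 10.09 ± 0.48 log2 in control arrays, with changes of 0.17 (A3), 0.18 (A1) and -0.24 log2 (A4). Smad1 averaged 8.22 ± 0.40 and 8.34 ± 0.33 log2, Smad4 10.79 ± 0.14 and 10.72 ± 0.098, and Smad6 5.78 ± 0.094 and 5.61 ± 0.29. For each of these genes the clones did not share a direction. The 2 probe sets with an unadjusted p under 0.05 were dim ones of the receptors, Bmpr1a 1445413_at (0.33 log2, p of limma = 0.0399) and Bmpr2 1441652_at (-0.24 log2, 0.0335), and the brightest probe sets of these genes differed by 0.023 and -0.078 log2. Of the 40 further pathway genes 0 were called and 0 had an unadjusted p under 0.05, 13 reading higher and 27 lower. Over all 18193 genes 9328 read higher and 8865 lower. The median of the 40 differences was -0.046 log2, and the split was not tested. The smallest p-values of limma among the 40 were those of the ligands Bmp2 (0.23 log2, unadjusted p = 0.0940), Bmp8b (-0.19, 0.102) and Bmp6 (-0.16, 0.199).

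**Figure D4:**
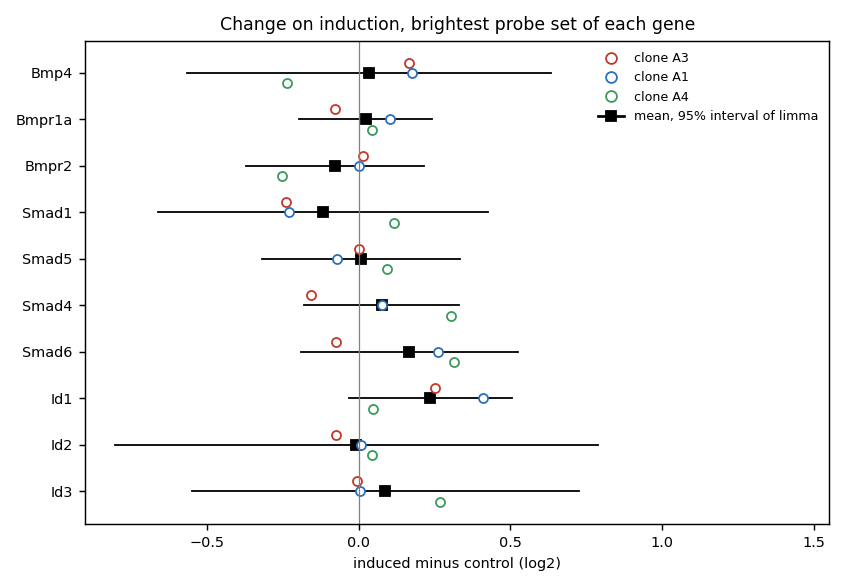
Induced minus control signal (horizontal axis, log2) of the brightest probe set of the 10 genes (vertical axis), with open circles for the 3 clones, filled squares for the mean and lines for the 95% interval of limma. Every interval includes 0, and the 3 circles lie on the positive side for Id1 alone.

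Induced A1 and control A4 were the 2 highest arrays at 5 of the 25 member probe sets (20%), against 6.99% of all probe sets (3150 of 45037). Both A3 arrays were the lowest at all 5, and among probe sets with both A3 arrays lowest the order was met by 5 of 9 members and 17.6% of all (1316 of 7485). These were Bmp4, the brightest Bmpr2, the 2 dimmer Smad1 probe sets and the dimmest Smad4 probe set (1422485_at). The step down to the next array was 0.37 log2 for the dimmest Smad1 and 0.25 for the Smad4 probe set, but only 0.025 for Bmp4, 0.017 for the other Smad1 and 0.0028 for the Bmpr2 probe set, which are near ties. That Smad4 probe set read 9.26 and 9.24 log2 in A3, 9.58 and 9.30 in A1 and 9.33 and 9.67 in A4, so A1 read higher and A4 lower on induction. The brightest Smad1 probe set did not share that order, so the 3 probe sets of this gene did not agree on which of the A1 and A4 arrays was the highest.

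**Figure D5:**
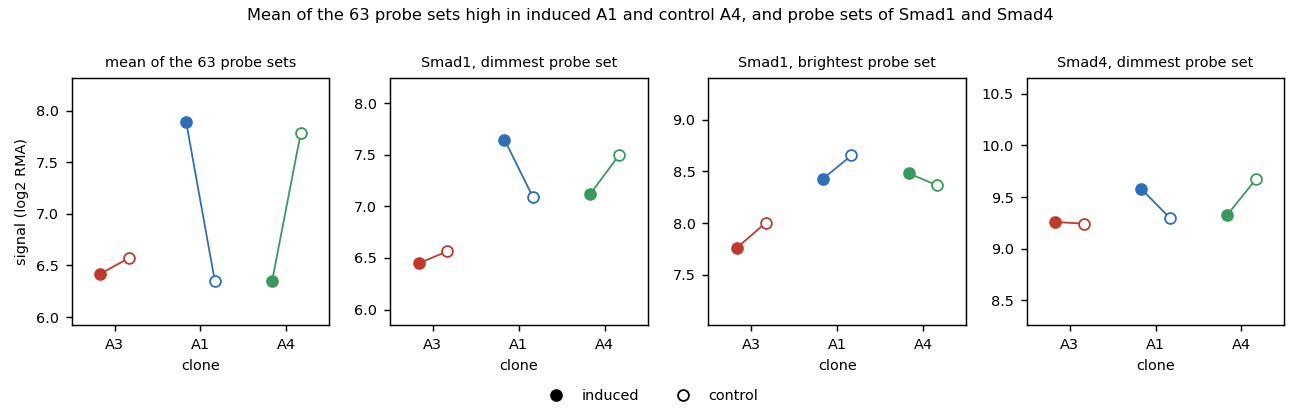
Signal (vertical axis, log2 RMA) by clone (horizontal axis) in induced (filled) and control (open) arrays for the mean of the 63 probe sets high in induced A1 and control A4, for 2 Smad1 probe sets and for 1 Smad4 probe set, each circle being 1 array. The dimmest Smad1 and Smad4 probe sets share the order of the 63 within A1 and A4 with smaller steps, and the brightest Smad1 probe set does not.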

How the data were processed

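Total RNA of 6 cultures was hybridized to Affymetrix mouse expression arrays. The deposited values are log2 signals, obtained by the authors through RMA in affy of Bioconductor (version not given in the sources used here), for 45101 probe sets. RMA fits all arrays together and compresses differences between dim signals. No further normalization was applied, and 64 control probe sets entered no test. The array annotation gave 1 symbol for 34945 probe sets, several for 932 and none for 9160.

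Groups, clones and replicate numbers were taken from the sample labels. Comparisons were made in R 4.3.3 with limma 3.58.1 (lmFit, then eBayes), two-sided, at 0.05 after Benjamini-Hochberg adjustment across the 45037 probe sets: induced minus control with condition as the only term (the study's methods name no block), and clones in a fit of condition and clone. Samples of 1 number are the same clone, so the numbers pair them; deviations of paired arrays correlated at r = 0.670 (A3), 0.313 (A1) and 0.290 (A4), but both crossed pairs of A1 and A4 correlated more than the same-clone pairs of A1 and A4 (induced A1 with control A4 at 0.369, induced A4 with control A1 at 0.348). The members, the pathway and marker lists, the contrasts and the motifs were chosen with earlier results of these data known. Members were named by their full list with the brightest probe set by mean as the gene's main one, pathway genes where called or with the 3 smallest p on induction, and likeness for the 5 nearest genes. Code was tested on simulated data. Motifs were searched in RefSeq windows with Python 3.11.15, and plots were drawn with matplotlib 3.10.9. Alternatives were a floor of 5 log2 on the mean, 1 probe set per symbol, array medians subtracted, cyclic loess, a further quantile normalization, the trend and robust options of eBayes, the replicate block, the methods' t-test, no condition term between clones, and leaving out arrays or clones.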

Additional observations from a re-analysis of the deposited data

Results flagged for a closer look

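A pair of probe sets changed in opposite directions on induction in A1 and A4, by at least 0.25 log2 each way. That limit was chosen after the values were seen, in place of a first limit of 0.3 log2 that 1 probe set (Smad1) met. Opposite signs of any size were seen at 10 of the 25 member probe sets. The share over all probe sets was not counted at any of these limits, so the counts are not read as particular to the members. The dimmest Smad1 probe set (1416081_at) changed by 0.561 log2 in A1 and by -0.374 log2 in A4. The dimmest Smad4 probe set (1422485_at) changed by 0.283 log2 in A1 and by -0.344 log2 in A4. With 1 array for each clone and condition the difference was not tested. The brightest Smad1 probe set changed by -0.23 log2 in A1 and 0.12 log2 in A4, and the brightest Smad4 probe set by 0.078 and 0.31 log2.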

How the results depend on the processing

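Id2 (2 probe sets), Id4 and Bmpr1b kept their direction and call in A3 under all alternatives run, and Id3 under all but that without induced A1 and control A4. The floor of 5 log2 on the mean left Bmpr1b out, so its call was not put to that alternative. The count of called members in A3 (7) was 4 with 1 probe set per symbol, 3 to 7 without single arrays or clones, and 2 without induced A1 and control A4. The last was chosen for clones after seeing the data and has no condition term, because with that term no residual degrees of freedom remained. It leaves 4 arrays. With 1 probe set per symbol no call was lost, since fewer probe sets were tested. That setting tests 10 member probe sets, and the fit to all probe sets also called 4 of these 10 in A3. Between A1 and A4 the fit to all probe sets likewise called 3 of the brightest probe sets of the 18193 genes. Over all probe sets the A3 count of 4309 was 1312 to 3098 without single arrays or clones and 940 without the pair. The F test counts were 589 to 1959 and 30 (2496 as reported), and for the members 2 to 5 and 0 (5 as reported). Between A1 and A4, 8 calls became 3 with 1 probe set per symbol, 1 to 8 without single arrays or clones, and 0 without the pair.

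Induction gave 0 calls in every alternative, among them the replicate block (paired by clone), which gave 0 members, 3 at an unadjusted p under 0.05 and a smallest adjusted p of 0.999861, and changed no call. Signs of values that were not called turned as follows. On induction, values without single arrays or clones ran from -0.22 to 0.26 log2 for Bmp4, -0.017 to 0.082 for Bmpr1a, -0.18 to 0.024 for Bmpr2, -0.29 to 0.11 for Smad1, -0.087 to 0.11 for Smad5, -0.039 to 0.19 for Smad4, -0.30 to 0.32 for Id2 and -0.14 to 0.36 for Id3. Without the pair, Bmpr1a was -0.0028 and Smad5 -0.070. Smad5 was -0.022 after quantile normalization and -0.012 after cyclic loess, and Id2 was 0.017 with array medians subtracted. In A3, Smad4 ran from -0.22 to 0.12 and was 0.0094 after quantile normalization. For A1 minus A4 the ranges were -0.38 to 0.022 (Bmp4), -0.058 to 0.062 (Bmpr1a), -0.21 to 0.054 (Bmpr2), -0.056 to 0.29 (Smad1), -0.15 to 0.19 (Smad4), -0.12 to 0.16 (Id1) and -0.065 to 0.21 (Id3). Without the pair they were -0.071 (Bmpr1a), 0.048 (Bmpr2), -0.17 (Smad4), -0.13 (Smad6), -0.21 (Id1) and -0.066 (Id3). Quantile normalization gave -0.034 (Bmpr1a) and -0.0083 (Id1), and cyclic loess gave -0.034 (Bmpr1a), -0.0072 (Smad4) and -0.016 (Id1). The cause of these turns was not tested. Signals below about 4 log2 lie near the 25th percentile of the arrays, which limits Bmpr1b, Bmper, Bmpr1a 1445413_at and the dim Bmpr2 and Id2 probe sets. Bmpr1a 1451729_at, at 4.71 to 5.18 log2, lay nearer the array medians.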
